A study of Mus musculus with 6 samples.

Results

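The amino acid transporters described here are the genes of the families Slc1, Slc3, Slc6, Slc7, Slc36, Slc38 and Slc43, chosen by gene symbol alone, with Slc6a2 and Slc38a4 not analysed here. The deposited tables hold 59 such genes among 24520. Of these, 7 belong to Slc1, 2 to Slc3, 18 to Slc6, 15 to Slc7, 4 to Slc36, 10 to Slc38 and 3 to Slc43. RNA was sequenced from endothelial cells sorted by fluorescence from mouse lung, in 3 libraries labelled KO and 3 libraries labelled WT for Dnmt3a, the gene of a de novo DNA methyltransferase. The sources used here do not give the Dnmt3a allele, any Cre driver, the strain, the age of the mice, the gate of the sort or which libraries are separate animals, so the p-values below measure only the spread between these libraries, which may be technical.

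Cells take up amino acids through carriers that divide the work by substrate and by driving force. The Slc7 light chains exchange one amino acid for another and reach the membrane bound to a heavy chain of Slc3, whereas the cationic transporters of Slc7 work alone. The Slc1 and Slc38 carriers use the sodium gradient to accumulate glutamate or small neutral amino acids such as glutamine. Carriers of Slc36 such as Slc36a1 are coupled to protons. Slc6 carriers use sodium and chloride for glycine, taurine, creatine and neurotransmitters. In endothelium these carriers supply arginine to nitric oxide synthase and glutamine to growth, and starvation for amino acids is known to switch several of them on through the transcription factor ATF4.

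ATF4 and its C/EBP partners bind a composite element, through which the response to starvation is known to reach carriers such as Slc7a11. Promoter windows with a match to the motif of that element are shown. RefSeq promoters of GRCm38.p6, running from 250 bases before to 50 bases after a start site, were matched by symbol for 42 of the 59 carriers. Among those without a window were the abundant carriers Slc43a3 and Slc6a6, and also Slc6a8, Slc1a5, Slc7a5 and Slc38a1. The motif TGATGNAA, searched on both strands, lay in windows of 4 of these 42 genes, which is 9.52%, against 4.51% of the 27025 genes of the promoter table. The windows are given 5′ to 3′ on the gene's strand, with the matches in capitals. In the Slc7a11 window, at chr3:50443564-50443863 on the minus strand, the matches began 66 and 47 bases before the start site. The Slc1a4 window, at chr11:20332664-20332963 on the minus strand, had 1 match, which began 4 bases before the start. In the Slc7a7 window, at chr14:54417895-54418194 on the minus strand, matches began 141 bases and 1 base before the start.
Slc7a11: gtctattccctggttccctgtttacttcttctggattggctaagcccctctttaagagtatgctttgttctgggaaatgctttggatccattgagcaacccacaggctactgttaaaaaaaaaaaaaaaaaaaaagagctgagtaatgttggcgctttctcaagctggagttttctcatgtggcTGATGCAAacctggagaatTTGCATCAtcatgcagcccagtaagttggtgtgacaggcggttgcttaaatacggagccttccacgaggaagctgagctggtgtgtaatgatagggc
Slc1a4: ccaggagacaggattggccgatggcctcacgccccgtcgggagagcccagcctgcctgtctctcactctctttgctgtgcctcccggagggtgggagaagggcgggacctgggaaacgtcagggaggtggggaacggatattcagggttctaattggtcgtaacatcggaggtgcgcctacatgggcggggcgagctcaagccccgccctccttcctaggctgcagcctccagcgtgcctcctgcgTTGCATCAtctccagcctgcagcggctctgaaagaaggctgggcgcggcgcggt
Slc7a7: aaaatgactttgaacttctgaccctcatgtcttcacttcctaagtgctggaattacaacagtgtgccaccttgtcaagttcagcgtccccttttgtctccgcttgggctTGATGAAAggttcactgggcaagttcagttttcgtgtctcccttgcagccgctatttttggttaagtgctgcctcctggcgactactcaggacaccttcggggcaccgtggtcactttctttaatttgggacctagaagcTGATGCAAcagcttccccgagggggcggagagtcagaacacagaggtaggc
A match is a run of letters and not a shown binding site, and the fourth gene, Slc6a21, was at 0.0194 TPM. CpG pairs, the substrate of Dnmt3a, were counted for each gene in its window with the most of them. Their median per gene was 21 in the 17 matched carriers at 1 TPM or more and 10.0 in the 25 below that level. Over all genes the same medians were 22 and 4. No methylation was measured in these files.

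Totals were 28136194 to 31402838 counts in the libraries labelled KO and 29482747 to 39999172 in those labelled WT. Dnmt3a ran against its label. It had 5090, 4878 and 4750 counts in the libraries labelled KO, against 1235, 1079 and 1198 in those labelled WT, for a log2 difference of 2.22 (SE 0.11, adjusted p = 0.00157, edgeR). The tables are per gene and do not show which exons the reads came from. Every direction below is therefore between labels, and a fold change, or log2 difference, is the libraries labelled KO over those labelled WT. The endothelial markers were all detected, with a summed level of 16612, 18161 and 19670 CPM in the libraries labelled KO and 16661, 19795 and 20910 CPM in those labelled WT. CPM are library-scaled counts (TMM) and compare libraries, whereas TPM are per transcript length and compare genes.

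Most of the carrier RNA of these cells came from a few genes. Averaged over all 6 libraries, 3 carriers exceeded 100 TPM, namely Slc43a3 at 541 TPM, the CD98 heavy chain Slc3a2 at 185 TPM and the taurine transporter Slc6a6 at 175 TPM. A further 7 lay between 10.0 and 100 TPM, led by the glutamine transporter Slc38a2 at 94.4 TPM, and 15 lay between 1 and 10.0 TPM. Another 27 were detected below 1 TPM. The other 7 had no count in any library, among them the GABA transporters Slc6a11 and Slc6a13, the betaine transporter Slc6a12, the dopamine transporter Slc6a3, Slc7a12 and Slc36a3. For these a count of 0 allows up to 3 counts, or 0.0796 to 0.102 CPM in a library, by counting error alone. Slc43a3, Slc3a2, Slc6a6 and Slc38a2 together held 82.3%, 89.5% and 82.8% of the summed carrier TPM in the libraries labelled KO and 80.3%, 80.6% and 84.6% in those labelled WT.

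**Figure D1:**
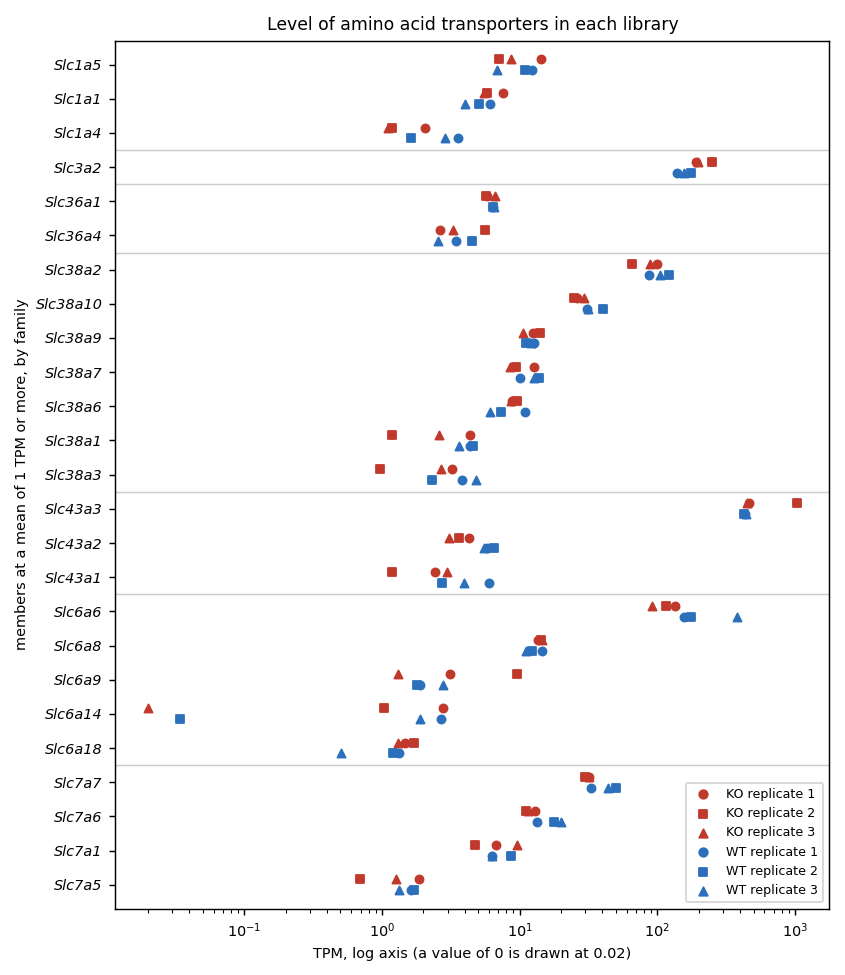
Levels of the 25 amino acid transporters at a mean of 1 TPM or more, by family, in TPM on a log axis on which a value of 0 is drawn at the left end. Each point is 1 library, with the libraries labelled KO drawn above those labelled WT. Slc43a3, Slc3a2 and Slc6a6 lie above 100 TPM on average, and Slc6a14 is spread most widely.

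No amino acid transporter differed between the labels at an adjusted p of 0.05. Of the 59 genes, 38 passed the filter on low counts and 0 of these were called by edgeR's quasi-likelihood test, against 5 of 14667 genes, or 0.0341%, over all genes. At an unadjusted p under 0.05, 0 carriers were higher in the libraries labelled KO, where 6.88% of all genes were, and 6 were lower, which is 15.8% of the 38 against 5.77% of all genes. The 6 were the light chains Slc7a6 and Slc7a7, Slc6a6, Slc38a10, Slc1a4 and Slc43a2. The split was not the same in every fit, since limma on log2 TPM gave 1 higher (Slc3a2) and 3 lower, and edgeR without replicate 3 under KO gave 2 higher (Slc6a9 and Slc6a17) and 4 lower. All of the 6 but Slc1a4 were also without overlap in CPM between the labels. Such separation was seen for 0 carriers higher in the libraries labelled KO, against 10.9% of all genes, and for 5 lower, 13.2% of the 38 against 9.42% of all genes. DESeq2 called 1 of the 40 carriers to which it gave an adjusted p, Slc6a6, against 2.68% of 15212 genes. The median log2 fold change of the 38 carriers was -0.06, beside 0.01 over all genes tested. The 223 tested genes of all other Slc families had a median of -0.06, with 7.17% higher and 11.2% lower at an unadjusted p under 0.05. The 21 carriers that were not tested comprise the 7 without a count and 14 with 1 to 56 counts over all libraries. Malat1, an abundant nuclear RNA, had separate ranges under the labels, with 12513, 20574 and 16343 CPM in the libraries labelled KO and 9807, 10376 and 5861 CPM in those labelled WT, with a log2 difference of 0.92 (SE 0.26, adjusted p = 0.293, edgeR). It was highest in replicate 2 under KO and lowest in replicate 3 under WT, and the part of RNA quality in the lower carriers was not tested. In bulk RNA, fewer cells of a type and less RNA per cell cannot be told apart.

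**Figure D2:**
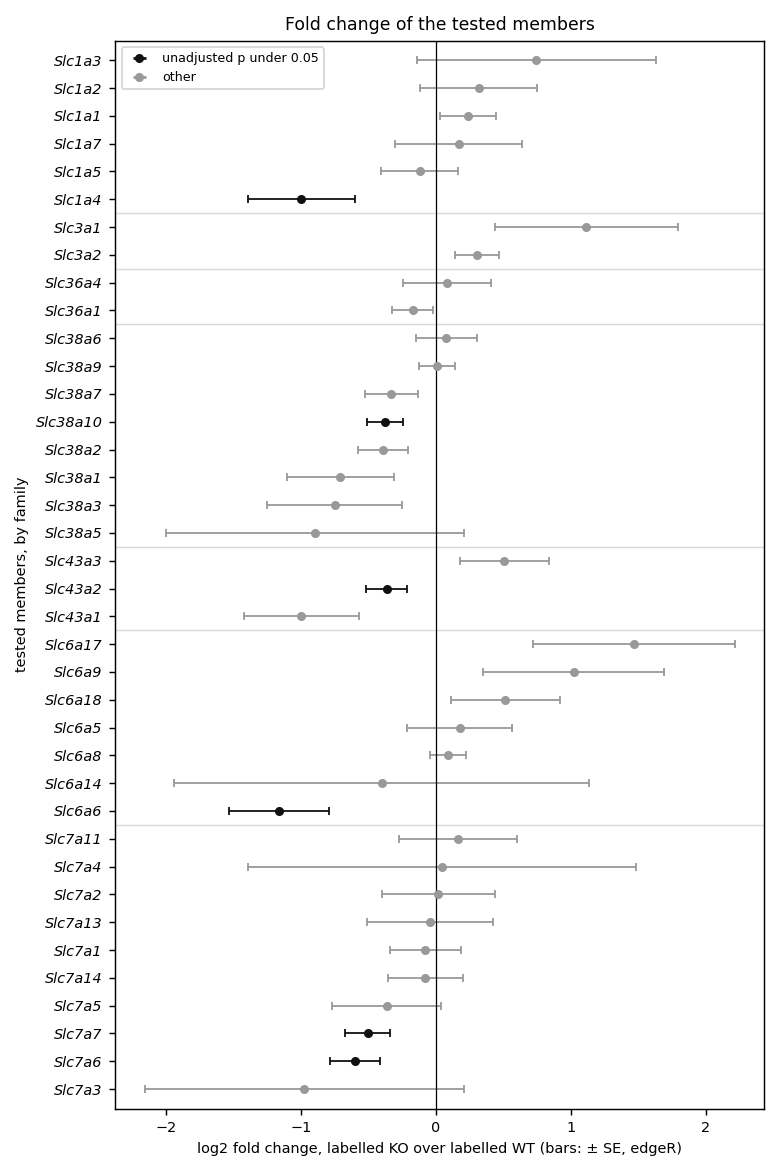
Log2 fold change (libraries labelled KO over libraries labelled WT) of the 38 tested amino acid transporters by family, with bars of 1 SE from edgeR. The 6 genes at an unadjusted p under 0.05 all lie below 0, and none passed the adjusted threshold.

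Among the heterodimeric exchangers, the heavy chain had a positive and its main light chains a negative log2 fold change, none past the adjusted threshold. Slc3a2 (CD98hc, ENSMUSG00000010095, mm10 chromosome 19, 8706882 to 8723369, minus strand) carries its light chains to the membrane. Its level was 192, 250 and 198 TPM in the libraries labelled KO and 138, 175 and 157 TPM in those labelled WT. The labels did not overlap in TPM, but in CPM they did, at 266, 361 and 276 CPM under KO against 209, 270 and 253 CPM under WT. The log2 fold change was 0.30 (SE 0.16, adjusted p = 0.467, edgeR), and it was 0.15 without replicate 2 under KO and 0.19 without replicate 1 under WT. The other heavy chain, Slc3a1, which pairs with the cystine carrier of kidney and gut, stayed at 0.463 ± 0.203 TPM under KO and 0.194 ± 0.114 TPM under WT (SD, n = 3 each). Slc3a1 shares 601 exonic bases with Prepl on the opposite strand, and the sources used here do not say if reads were counted by strand.

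The y+L light chains, which export arginine and lysine in exchange for neutral amino acids and sodium, were the main partners of Slc3a2 by RNA. Slc7a7 (y+LAT1, ENSMUSG00000000958, chromosome 14, 54369442 to 54417780, minus strand) had 35.5, 35.7 and 37.8 CPM in the libraries labelled KO and 39.2, 58.8 and 56.7 CPM in those labelled WT. All values under KO were below all values under WT. Its log2 fold change was -0.51 (SE 0.17, adjusted p = 0.327, edgeR). Slc7a7 overlaps Oxa1l on the opposite strand by 232 exonic bases, and the log2 fold change of Oxa1l was -0.07 (SE 0.11). Slc7a6 (y+LAT2, ENSMUSG00000031904, chromosome 8, 106168857 to 106198706, plus strand) had 27.0, 24.9 and 26.0 CPM under KO against 30.1, 39.6 and 48.2 CPM under WT, again without overlap. Its log2 fold change was -0.60 (SE 0.18, adjusted p = 0.31, edgeR).

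The light chains best known from proliferating cells and from the blood-brain barrier were low. Slc7a5 (LAT1, the large neutral amino acid exchanger) had 1.85, 0.698 and 1.27 TPM in the libraries labelled KO and 1.63, 1.71 and 1.33 TPM in those labelled WT, with a log2 difference of -0.36 (SE 0.40, adjusted p = 0.729, edgeR). Slc7a11 (xCT, the cystine and glutamate exchanger) stayed between 0.175 and 0.330 TPM in all libraries, and its log2 fold change was 0.16 (SE 0.44, adjusted p = 0.897, edgeR). Of the promoters shown above, those of Slc7a7 and Slc1a4 thus belong to genes with negative fold changes and that of Slc7a11 to a gene near 0. Slc7a8 (LAT2) was counted in 3 of 6 libraries, with 20 counts in replicate 1 under KO and 2 and 29 counts in replicates 2 and 3 under WT, and was not tested. Of 10 other genes known from endothelium of the blood-brain barrier, 5 averaged 1 TPM or more, with 0 counts of the lipid carrier Mfsd2a under KO and 2 counts in all under WT. This list was not low as a whole, since it summed to 3034, 2909 and 4217 TPM under KO. Under WT the sums were 2956, 3564 and 2965 TPM. Of its 7 tested genes, 5 had a positive and 2 a negative log2 fold change, and 0 were called by edgeR.

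Summed over the 6 known light chains of Slc3a2, the level was 47.1, 42.1 and 45.1 TPM in the libraries labelled KO and 48.2, 69.6 and 65.9 TPM in those labelled WT. Slc7a7 made up 66.8% to 71.7% of this sum, Slc7a6 25.5% to 30.2% and Slc7a5 1.66% to 3.93%. The ratio of Slc3a2 to that sum in TPM was 4.08, 5.94 and 4.40 under KO and 2.87, 2.51 and 2.38 under WT. All libraries labelled KO thus had a higher ratio than all libraries labelled WT, at 4.81 ± 0.992 against 2.59 ± 0.253 (SD, n = 3 each). Slc3a2 in TPM and the light chain sum were each already without overlap, in opposite directions. The separation of the ratio follows from that and adds no evidence to it. The ratio was formed after the values had been seen, and no test is given for it. Slc3a2 is also known as a partner of integrins.

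**Figure D3:**
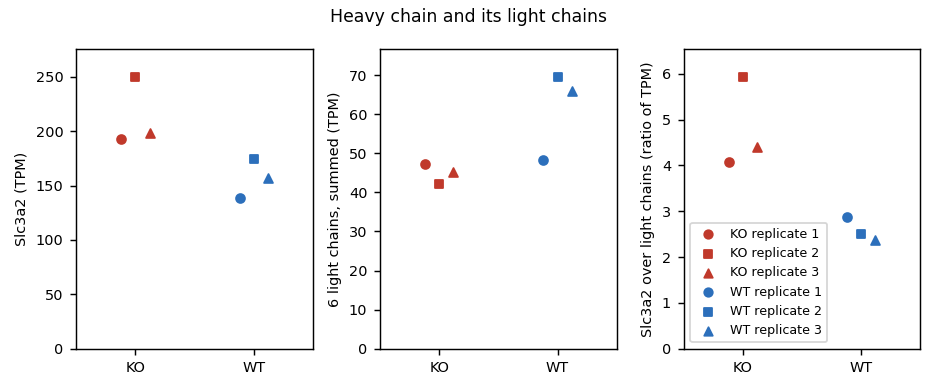
Heavy chain Slc3a2 in TPM, the summed TPM of its 6 light chains and the ratio of the 2, with 1 point per library and the libraries labelled KO left of those labelled WT. The ratio lies between 4.08 and 5.94 under KO and between 2.38 and 2.87 under WT.

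The cationic transporters of Slc7, which take up arginine and lysine, were dominated by Slc7a1 (CAT1), the arginine carrier of endothelium. Slc7a1 had 6.73, 4.78 and 9.59 TPM in the libraries labelled KO and 6.30, 8.66 and 6.31 TPM in those labelled WT, with full overlap and a log2 difference of -0.08 (SE 0.26, adjusted p = 0.921, edgeR). Slc7a2 (CAT2) had 6.63, 4.36 and 2.67 CPM under KO and 6.33, 3.49 and 3.66 CPM under WT. Slc7a4 was split within each label, with 49, 54 and 1 counts under KO and 52, 0 and 67 counts under WT. It overlaps P2rx6 on the opposite strand by 200 exonic bases, and P2rx6 had 59, 4 and 0 counts under KO and 76, 0 and 38 counts under WT. Slc7a3 (CAT3) and Slc7a14 averaged below 1 TPM. Among the 5 cationic transporters the log2 fold change was positive for 2 and negative for 3.

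All 3 members of Slc43 were above 1 TPM, and none passed the adjusted threshold. Slc43a3 (ENSMUSG00000027074, chromosome 2, 84936579 to 84958509, plus strand), which carries purine nucleobases rather than amino acids and is placed here by its family, was the most abundant of all the carriers. Its level was 606, 1434 and 626 CPM in the libraries labelled KO and 604, 593 and 678 CPM in those labelled WT. Replicate 2 under KO stood apart, the range within KO being 2.37-fold against 1.14-fold within WT. The log2 fold change of 0.51 (SE 0.33, adjusted p = 0.537, edgeR) became -0.02 without that library (adjusted p = 0.954). Slc43a2 (LAT4, ENSMUSG00000038178, chromosome 11, 75531694 to 75577575, plus strand), a facilitative carrier of leucine and other large neutral amino acids, had 15.0, 12.4 and 13.7 CPM under KO against 17.0, 18.2 and 17.8 CPM under WT. The labels did not overlap, and the log2 fold change was -0.36 (SE 0.15, adjusted p = 0.385, edgeR), or -0.69 on the log2(TPM + 0.1) scale. Slc43a1 (LAT3), a carrier of the same kind, had 3.28, 1.72 and 4.10 CPM under KO and 8.25, 3.86 and 6.02 CPM under WT, with a log2 difference of -0.99 (SE 0.43, adjusted p = 0.396, edgeR). Slc43a1 and Slc43a3 lie 72984 bases apart on chromosome 2, and their mean levels were 3.22 and 541 TPM.

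Of the 8 tested members of Slc38, the sodium-coupled neutral amino acid transporters, 2 lay above and 6 below 0 on the log2 scale, and the median was -0.38. Slc38a2 (SNAT2), the glutamine and alanine transporter that starvation for amino acids is known to raise, led the family. It had 257, 178 and 242 CPM in the libraries labelled KO and 240, 335 and 314 CPM in those labelled WT. The lowest value under WT fell between those under KO, and the log2 fold change was -0.39 (SE 0.19, adjusted p = 0.422, edgeR). Slc38a10 (ENSMUSG00000061306, chromosome 11, 120103960 to 120151346, minus strand) had 59.8, 60.4 and 74.2 CPM under KO against 76.1, 95.2 and 80.9 CPM under WT. It did not overlap between the labels, by a margin of 74.2 to 76.1 CPM, and its log2 fold change was -0.38 (SE 0.14, adjusted p = 0.342, edgeR). Slc38a1 (SNAT1), which lies 44478 bases from Slc38a2 on chromosome 15, had 18.7, 5.45 and 12.1 CPM under KO and 19.8, 21.2 and 18.1 CPM under WT, with replicate 2 under KO the lowest.

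Lysosomal members of Slc38 included the one whose fold change was nearest 0. Slc38a9, which senses arginine in the lysosome for mTORC1, had 12.5, 14.1 and 10.6 TPM in the libraries labelled KO and 12.7, 11.1 and 12.2 TPM in those labelled WT. Its log2 fold change was 0.01 (SE 0.13, adjusted p = 0.984, edgeR). Slc38a7, which exports glutamine from the lysosome, had 12.7, 9.36 and 8.50 TPM under KO and 10.1, 13.8 and 12.8 TPM under WT, with overlap and a log2 difference of -0.33 (SE 0.20, adjusted p = 0.51, edgeR). Slc38a6 ran from 8.67 to 9.54 TPM under KO, inside its range of 6.13 to 11.0 TPM under WT. Slc38a3 (SNAT3) had a log2 difference of -0.75 (SE 0.50, adjusted p = 0.551, edgeR) at 3.23, 0.966 and 2.69 TPM under KO and 3.79, 2.32 and 4.86 TPM under WT. Without replicate 2 under KO the log2 difference was -0.39, and without replicate 3 under WT it was -0.45.

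Slc1 holds neutral amino acid exchangers and glutamate carriers, and no member passed the adjusted threshold. Slc1a4 (ASCT1, ENSMUSG00000020142, chromosome 11, 20302180 to 20332713, minus strand), an exchanger of serine and alanine, had 4.46, 2.71 and 2.54 CPM in the libraries labelled KO and 8.34, 3.76 and 7.27 CPM in those labelled WT. Replicate 2 under WT fell below replicate 1 under KO, so the labels overlapped. The means were 3.24 ± 1.07 CPM under KO and 6.45 ± 2.40 CPM under WT (SD, n = 3 each), a ratio of 0.502 (adjusted p = 0.372, edgeR). Slc1a5 (ASCT2), the glutamine exchanger, had 14.2, 7.05 and 8.68 TPM under KO and 12.3, 10.9 and 6.88 TPM under WT, with a log2 difference of -0.12 (SE 0.29, adjusted p = 0.882, edgeR) that turned to 0.060 without replicate 2 under KO and 0.048 without replicate 1 under WT. The 4 tested glutamate carriers had positive log2 fold changes, none at an unadjusted p under 0.05. Slc1a3 turned to -0.027 without replicate 3 under KO, and Slc1a7 to -0.043 without replicate 1 under KO and -0.079 without replicate 3 under WT. Slc1a1 (EAAT3), the one above 1 TPM, had 7.58, 5.78 and 5.47 TPM under KO and 6.15, 5.06 and 3.99 TPM under WT, with a log2 difference of 0.24 (SE 0.21, adjusted p = 0.647, edgeR).

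The RNA of the family Slc36 came mainly from Slc36a1 and Slc36a4. Slc36a1 (PAT1), which exports small amino acids from lysosomes, had 5.83, 5.66 and 6.58 TPM in the libraries labelled KO and 6.42, 6.37 and 6.54 TPM in those labelled WT. Slc36a4 (PAT4) had 2.66, 5.59 and 3.30 TPM under KO and 3.46, 4.50 and 2.54 TPM under WT. Both overlapped, with log2 fold changes of -0.17 (SE 0.15) and 0.09 (SE 0.33). Slc36a2 and Slc36a3 lie beside Slc36a1 on chromosome 11 and averaged 0.127 and 0 TPM.

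Slc6 was the family with the largest fold change among the abundant carriers and with the most members at or near 0. Slc6a6 (ENSMUSG00000030096, chromosome 6, 91684053 to 91759066, plus strand) takes up taurine, an osmolyte. It had 451, 406 and 323 CPM in the libraries labelled KO against 557, 621 and 1463 CPM in those labelled WT. The labels did not overlap, and replicate 3 under WT stood far above the others. The means were 394 ± 65.0 CPM under KO and 880 ± 506 CPM under WT (SD, n = 3 each), with a log2 difference of -1.16 (SE 0.37, adjusted p = 0.322, edgeR). DESeq2 gave -1.17 with an adjusted p of 0.0223. Without replicate 3 under WT the value was -0.58 with an adjusted p of 0.627 by edgeR, and over all alternatives it ran from -1.41 to -0.58, with adjusted p between 0.0223 and 0.627. Replicate 3 under WT was also the highest library for Glul (glutamine synthetase) and for Sgk1, a kinase that acts on transporters at the membrane. Glul had 210, 276 and 180 CPM under KO and 309, 345 and 905 CPM under WT. Sgk1 had 1231, 1400 and 1726 CPM under KO and 1633, 2275 and 4388 CPM under WT. Whether a state of that library has a part in the result for Slc6a6 was not tested.

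**Figure D4:**
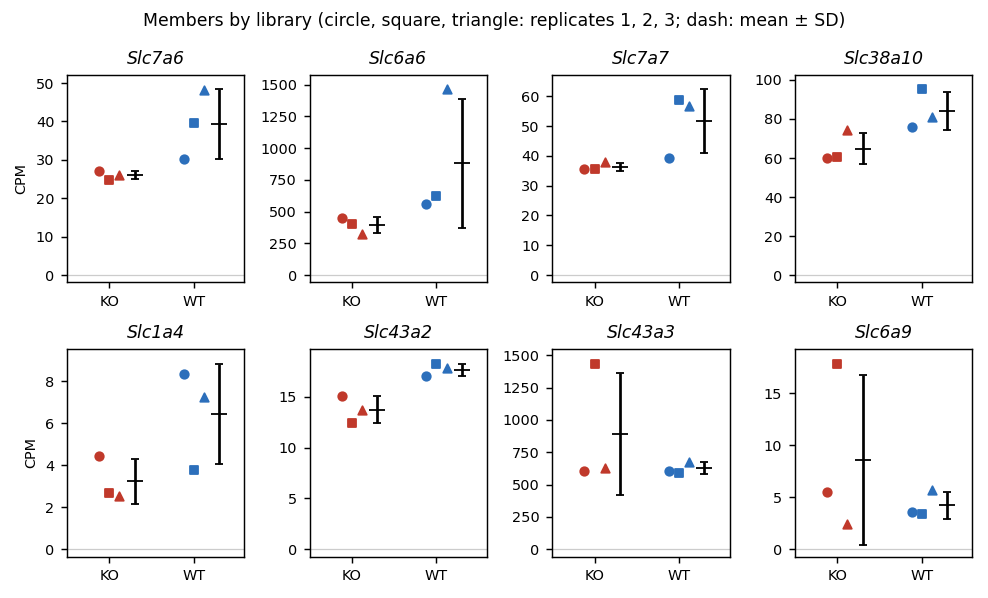
CPM of the carriers the results turn on, with 1 point per library, a dash and bars for the mean ± SD of each label (n = 3) and the libraries labelled KO left of those labelled WT. Replicate 3 under WT stands apart for Slc6a6 at 1463 CPM, and replicate 2 under KO for Slc43a3 at 1434 CPM.

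Other members of Slc6 above 1 TPM were Slc6a8, Slc6a9, Slc6a14 and Slc6a18. The creatine transporter Slc6a8 was steady, with 13.6, 14.3 and 14.6 TPM in the libraries labelled KO and 14.6, 12.4 and 11.1 TPM in those labelled WT, and a log2 difference of 0.09 (SE 0.13, adjusted p = 0.805, edgeR). The glycine transporter Slc6a9 (GlyT1) had 5.51, 17.9 and 2.47 CPM under KO and 3.59, 3.39 and 5.75 CPM under WT. Its log2 fold change was 1.02 (SE 0.67, adjusted p = 0.542, edgeR) with all libraries and -0.09 without replicate 2 under KO, the highest. Slc6a9 overlaps Ccdc24 on the opposite strand by 1258 exonic bases. Slc6a18, a neutral amino acid transporter known from kidney, had 1.48, 1.71 and 1.31 TPM under KO and 1.33, 1.20 and 0.502 TPM under WT. The vesicular-type transporter Slc6a17 stayed below 1 TPM, at 2.84, 1.62 and 0.406 CPM under KO and 0.913, 0.440 and 0.398 CPM under WT.

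Slc6a14, a sodium- and chloride-coupled carrier of neutral and cationic amino acids, varied with markers of alveolar type 2 cells, the epithelial cells that make surfactant. It had 154, 62 and 0 counts in the libraries labelled KO and 176, 2 and 156 counts in those labelled WT. The summed level of the 12 type 2 markers, all detected, was 3749, 2428 and 795 CPM under KO and 9677, 346 and 4286 CPM under WT, with Sftpc, a surfactant protein, at 2927, 1837 and 548 CPM under KO and 7762, 173 and 3310 CPM under WT. Both Slc6a14 and Slc7a4 were lowest in replicate 3 under KO and replicate 2 under WT, the libraries with the least of these markers. Whether epithelial RNA has a part in their counts was not tested. Of the 6 carriers lower at an unadjusted p under 0.05, Slc1a4 had its lowest values in the same libraries of each label. The alveolar type 2 markers themselves had 0 called and all 12 log2 fold changes negative, with a median of -1.07, and their part in the lower carriers was not tested.

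Markers of other cells were also present. Fibroblast markers summed to 675, 419 and 448 CPM in the libraries labelled KO and 317, 271 and 616 CPM in those labelled WT. Of the 13, 1, Col3a1, was called (adjusted p = 0.0223, edgeR), against 0.0341% of all genes, while DESeq2 called 5, against 2.68%. At an unadjusted p under 0.05 by edgeR, 6 of the 13 were higher under KO and 0 lower, against 6.88% and 5.77% of all genes. Their log2 fold changes were positive for 10 and negative for 3, with a median of 0.88. Erythroid and platelet markers summed to 2475, 664 and 1289 CPM under KO and 912, 3703 and 2177 CPM under WT. Macrophage markers summed to 258, 304 and 97.9 CPM under KO and 513, 104 and 255 CPM under WT. Of the 12 listed, 9 were counted, while the defining marker Marco was at 0. Within each label the macrophage sum was lowest in the library with the least of the alveolar type 2 markers. B cell, T and NK cell markers stayed below 10.0 CPM in every library. Neutrophil markers ran from 25.5 to 36.2 CPM, with 6 of the 7 listed counted and Ly6g at 0. Pericyte and smooth muscle markers ran from 130 to 588 CPM under KO and from 118 to 493 CPM under WT, and mesothelial markers from 2.40 to 9.94 CPM under KO and from 2.17 to 35.0 CPM under WT. The ranges of the airway markers, 340 to 658 CPM under KO and 104 to 951 CPM under WT, and of the alveolar type 1 markers, 523 to 991 CPM under KO and 545 to 674 CPM under WT, overlapped.

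**Figure D5:**
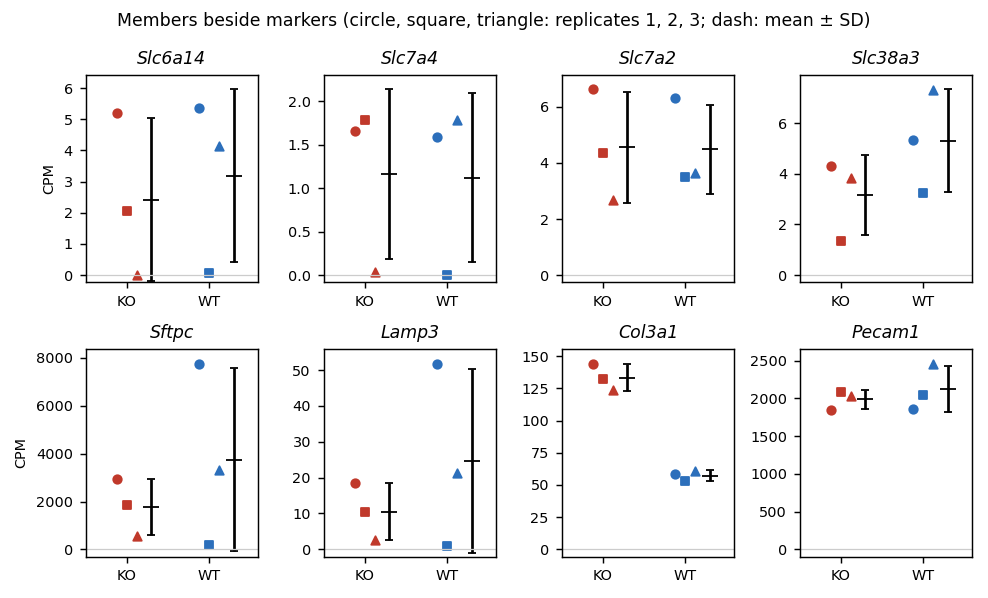
CPM of the carriers Slc6a14, Slc7a4, Slc7a2 and Slc38a3 beside markers of lung cell types. The markers are Sftpc and Lamp3 (alveolar type 2), Col3a1 (fibroblast) and Pecam1 (endothelium). Each point is 1 library, with the libraries labelled KO left of those labelled WT. Summed over their lists, endothelial markers lie between 16612 and 20910 CPM, while alveolar type 2 markers run from 346 to 9677 CPM.

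The count of lower carriers changed with the library left out, and so did the share of all genes. Of the 25 carriers at 1 TPM or more, the lowest CPM of all 6 libraries fell in replicates 1, 2 and 3 under KO for 4, 9 and 6 carriers and in those under WT for 1, 1 and 4. The highest fell in replicates 1, 2 and 3 under KO for 2, 6 and 1 carriers and in those under WT for 6, 5 and 5. These extremes were not counted over all genes, so they do not show a trait particular to the carriers. Without replicate 2 under KO, 3 of 39 carriers were lower at an unadjusted p under 0.05, or 7.69%, against 6.38% of all genes in that fit. Without replicate 3 under WT, 3 of 39 were lower, or 7.69%, against 3.02% of all genes. Slc6a6 and Slc7a6 were among the 3 in both cases. Without replicate 1 or 3 under KO, 15.4% and 10.0% of carriers were lower, against 6.62% and 4.27% of all genes. Without replicate 1 or 2 under WT, 12.5% and 10.3% were lower, against 6.11% and 4.95%. With replicate 2 under KO and replicate 3 under WT both left out, 1 of 37 was lower, Slc6a6. That is 2.70% against 4.35% of all genes, so the share of carriers was then below that of all genes.

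The genes around the carriers were described by lists of the same pathways, with 0 genes called by edgeR in any of these 8 lists and 2 by DESeq2, Vldlr and Nos2. Over all genes, 0.0341% were called by edgeR and 2.68% by DESeq2. At an unadjusted p under 0.05 by edgeR, 6.88% of all genes were higher and 5.77% lower in the libraries labelled KO. The counts of each list stand beside these shares. The list of the amino acid deprivation response holds Atf4 and its partners beside their targets. Of its 21 tested genes, 2 (Vldlr and Cebpg) were higher in the libraries labelled KO at an unadjusted p under 0.05. The 1 lower gene was Aldh18a1, with a log2 fold change of -0.67. The log2 fold changes were positive for 11 and negative for 10, among these Psat1 at -0.70, with a median of 0.15. Atf4 itself had 238, 274 and 368 CPM under KO and 189, 244 and 233 CPM under WT, with a log2 difference of 0.40 (SE 0.19, adjusted p = 0.417, edgeR) and 1 overlapping library. Cebpg, a partner of ATF4, had 57.4, 73.0 and 60.6 CPM under KO and 50.3, 40.9 and 42.9 CPM under WT, without overlap (log2 fold change 0.51, SE 0.14, adjusted p = 0.293, edgeR). Asns, which makes asparagine and is a known target, had -0.38 (SE 0.17, adjusted p = 0.411, edgeR). Vldlr, a lipoprotein receptor on that list, had 49, 20 and 64 counts under KO and 0 under WT, at least 16.5-fold higher against a floor of 3 counts per library, with an adjusted p of 0.209 by edgeR.

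Amino acid sensing by mTORC1 had 3 genes higher and 3 lower of 34 tested at an unadjusted p under 0.05, with a median log2 fold change of 0.14. The shares over all genes were 6.88% higher and 5.77% lower. Tsc2, the inhibitor of Rheb, was the most abundant in CPM and had a log2 fold change of 0.09 (SE 0.10). Arginine and nitric oxide metabolism had 0 higher and 2 lower of 12. Nos2, the inducible nitric oxide synthase, averaged 50.1 ± 4.12 CPM under KO and 69.4 ± 2.81 CPM under WT (SD, n = 3 each), with a log2 difference of -0.47 (SE 0.11, adjusted p = 0.269, edgeR). Ddah1, which degrades inhibitors of nitric oxide synthase, was the other, at -0.64 (SE 0.23, adjusted p = 0.342, edgeR).

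Glutamine and glutamate metabolism had 2 genes higher and 1 lower of 10 tested at an unadjusted p under 0.05. For this list and those that follow, the shares over all genes were 6.88% higher and 5.77% lower. Glutamate dehydrogenase Glud1, among the higher ones, averaged 113 ± 11.2 CPM in the libraries labelled KO and 92.5 ± 9.08 CPM in those labelled WT (SD, n = 3 each). The lower gene was Glul, given above, with a log2 difference of -1.23 (SE 0.42, adjusted p = 0.329, edgeR). Glutathione synthesis had 0 of 9 in either direction. Of 19 cytosolic aminoacyl-tRNA synthetases, which charge tRNAs with amino acids, 0 were higher and 4 lower, with 4 positive and 15 negative log2 fold changes and a median of -0.14. Kars, for lysine, averaged 195 ± 7.34 CPM under KO and 239 ± 16.5 CPM under WT (SD, n = 3 each), with a log2 difference of -0.30 (SE 0.11, adjusted p = 0.342, edgeR), and Dars, Farsb and Tars were the other lower ones. Transporter trafficking had 0 higher and 3 lower of 11. A list of carriers from other Slc families had 2 higher and 2 lower of 16. Both lower ones carry other substrates as well or instead, Slc15a3 being a peptide and histidine carrier and Slc17a9 a vesicular carrier of ATP, at -0.73 (SE 0.23, adjusted p = 0.322, edgeR).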

How the data were processed

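Gene expression was measured by paired-end RNA sequencing of amplified cDNA from sorted mouse lung endothelial cells, 3 libraries labelled KO and 3 labelled WT. The authors deposited estimated counts per gene, in whole numbers, and the authors' TPM per gene; per the submitters' processing notes, kallisto (version not stated) and mm10 were used. The annotation behind them is not given. TPM columns sum to 875864 to 885609. Symbols and coordinates came from GENCODE M21 on the same assembly, for 24299 of 24520 identifiers; the 221 without a symbol took 0.030% to 0.040% of a library. Rounding changed 0 values.

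In R 4.3.3, edgeR 4.0.16 (with limma 3.58.1) fitted its quasi-likelihood model to all 6 libraries without covariates, after TMM scaling and filterByExpr, with Benjamini-Hochberg adjustment at 0.05 over 14667 genes; the script was tested on simulated data. The SE is the log2 fold change divided by the square root of F. DESeq2 1.42.0, other scalings and filters, limma on log2 TPM with a pseudocount of 1 or 0.1, a replicate block and leaving out libraries were alternatives. The test of log2 TPM carries no depth. Libraries of a label differed beyond sampling noise and each counts as 1 replicate.

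The carriers, pathway lists and marker lists were chosen with earlier results of these data known. Named were Dnmt3a, carriers at an unadjusted p under 0.05 or at a mean of 1 TPM or more, and in each pathway list the gene with the smallest p and the most abundant one. Other genes, among them Slc3a1, Slc7a11, Slc6a17, Sgk1, Atf4 with its partners, and Glud1, were named after their values were seen. Some genes that the rule would name are not reported here.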

Additional observations from a re-analysis of the deposited data

How the results depend on the processing

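With each of the planned edgeR and limma alternatives, and with each library left out in turn (0 to 0), 0 carriers were called; DESeq2 called 1, Slc6a6. Over all genes the calls numbered 5 by edgeR, 407 by DESeq2, 1 without WT replicate 1 or WT replicate 3, 2 without KO replicate 3 and 3 without KO replicate 1. The count of carriers at an unadjusted p under 0.05 was 6, ran from 3 to 6 with single libraries left out (lower ones 3 to 6, against 3.02% to 6.62% of all genes; 2 higher and 4 lower without KO replicate 3), and was 1 without both KO replicate 2 and WT replicate 3. On log2 TPM it was 4 in each limma fit, 1 higher and 3 lower. The median log2 fold change of the carriers, -0.06, was -0.17 with a mean count of at least 50, 0.044 on log2(TPM + 0.1) and -0.18 on log2(TPM + 1) with a mean TPM of at least 1, and ran from -0.13 to 0.050 with single libraries left out. Its sign therefore depends on the setting. The 6 named carriers kept a negative log2 fold change under every setting run. Their adjusted p ran from 0.0934 to 0.675 for Slc7a6 and from 0.153 to 0.69 for Slc7a7. With the replicate block, 0 carriers and 0 genes were called, against 5 genes without it, and 6 carriers were at an unadjusted p under 0.05. Libraries with the same number had correlations of 0.28, -0.05 and -0.17 between their deviations from the label means. The replicates numbered 1 correlated best with each other, but not every library correlated best with its own number. These values do not show a pairing by number, and with 3 libraries a label they cannot exclude one. Sex was read from Xist, which had 21115, 60 and 7 counts in replicates 1, 2 and 3 under KO. Under WT it had 17895, 14 and 15 counts, so the replicates numbered 1 also differ in sex from the others. Whether sex has a part in their correlation was not tested. Adding sex, read from the data, as a covariate left 0 carriers called and 5 at an unadjusted p under 0.05; this alternative and the removal of 2 libraries together were chosen after seeing the data. The cause of these shifts was not tested. Depth limits what can be said of the 21 carriers that were not tested.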
